A study of Mus musculus with 11 samples.

Results

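The collagen genes were followed in mouse hindlimb muscle in which beta-catenin had been activated in cells that express Hic1. Members were all gene symbols present in both deposited count tables that consist of Col, a type number, the letter a and a chain number. This gave 44 of 24421 symbols: 11 fibrillar, 9 network-forming, 9 FACIT (fibril-associated, with interrupted triple helices), 6 microfibrillar and 4 transmembrane collagens, and 5 outside these types (Col7a1, Col15a1, Col18a1, Col26a1 and Col28a1). The rule used names and no measured value. Col4a3bp, which shares the first letters but codes for a ceramide transfer protein, does not match it.

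The study compared mice labelled WT with mice labelled WT/flox, in which 1 of the Ctnnb1 alleles has loxP sites around exon 3, the exon that holds the sites marking beta-catenin for degradation. The labels write the second group WTlFlox. Recombination was driven by Hic1CREERT2, a tamoxifen-inducible Cre under Hic1, a gene of mesenchymal progenitors and related stromal cells, and a Td.tomato reporter marked the recombined cells. All mice had received tamoxifen per the labels, and the muscles were at rest. Whether the WT mice used for lysate carried the Cre and the reporter is not given in the sources used here. Sorted progenitors (CD45-, CD31-, Sca1+, tdTomato+, alpha7-) came from 3 WT mice (72B8, 74A2 and 73C3) and 2 WT/flox mice (74A1 and 72B7) at day 14 after tamoxifen, and from 1 WT/flox mouse (74A3) at day 56. Whole lysate of the tibialis anterior (TA) muscle came from 2 WT mice (73A5 and 73A7) and 3 WT/flox mice (71B3, 71B4 and 71B5), all at day 56. The sources used here give neither strain nor age, and the lysate holds every cell type of the muscle, with the progenitors as a small part. According to the authors' sample tables each progenitor group had 1 female and 2 males, and the lysates were all from males.

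Collagens are secreted or membrane-bound proteins in which 3 alpha chains wind into a triple helix, and each chain has its own gene. Types I, III and V build the fibrils that give muscle connective tissue its tensile strength, type IV forms the sheet of the basement membrane around fibres and vessels, and type VI forms beaded microfilaments next to that sheet. FACIT collagens decorate fibrils, and the transmembrane collagens anchor cells to matrix. In skeletal muscle the mesenchymal progenitors, also called fibro/adipogenic progenitors, are the main source of fibrillar and type VI collagen, and their expansion is linked to fibrosis.

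Library totals ran from 13119843 to 16805238 counts in progenitors and from 16892158 to 19449227 in muscle. Levels are given as CPM, counts per 1e6 counts, scaled with edgeR's TMM factors, which correct for differences in library composition. Ctnnb1 itself differed by -0.26 (log2 WT/flox over WT, SE 0.17) in progenitors and by 0.00 (SE 0.15) in muscle, adjusted p = 0.673 and 0.997 in edgeR, and such a sum over the gene is no check of the removal of 1 exon. Dcn, a progenitor proteoglycan, was at 14756 CPM in WT progenitors, and the fibre myosin Myh4 was at 36142 CPM in WT muscle. Endothelial genes were not all low in WT progenitors: Pecam1 was at 6.83 CPM, but Tek was at 429, 329 and 374 CPM. The list of 10 endothelial genes took 0.0591 to 0.0700% of counts in WT progenitors and 0.0440 to 0.0491% in WT muscle. The WT progenitor library 73C3 differed from the other WT libraries by transcript length and in its collagens. Its transcripts under 2 kb were higher by a median of 0.32 (log2) than in the other 2 WT libraries, its transcripts of 6 kb or more were lower by -0.39, and the 27 collagens above a mean of 10 CPM had a median of -0.83. Trends with length were not particular to 73C3. Among WT/flox progenitors, the same medians were 0.27 and -0.29 in 72B7 and -0.21 and 0.27 in 74A3, with collagen medians of -0.06 and 0.02. In lysates they were 0.22 and -0.24 in 71B3 and -0.26 and 0.28 in 71B5. The lysate library 73A5 had a collagen median of -0.64 against 73A7, although its transcripts of 6 kb or more were higher by 0.31. Members whose call changed without 73C3 are named below, and so is the change of Col6a3 in muscle without 73A5.

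Of the 44 members, 38 had enough counts to be tested in progenitors and 11 passed the edgeR quasi-likelihood test (Benjamini-Hochberg adjusted p under 0.05 over all 12392 genes tested). In WT/flox 7 were higher (Col28a1, Col12a1, Col13a1, Col8a1, Col4a6, Col1a1 and Col1a2) and 4 were lower (Col6a6, Col17a1, Col15a1 and Col23a1). Over all genes tested 3.66% were called, 2.34% higher and 1.32% lower. Libraries of the 2 genotypes did not overlap for 8 members that were higher and 13 that were lower in WT/flox, where 8.73% and 8.17% of all genes did so (16.9% in either direction). An unadjusted p under 0.05 was reached by 21 of the 38 members, against 12.5% of all genes. The median log2 fold change of the tested members was -0.21, against 0.00 for all genes. In muscle 37 members were tested and 2 passed, both lower (Col5a3 and Col4a1), where 0.727% of 12654 genes were called, 0.514% higher and 0.213% lower. An unadjusted p under 0.05 was reached by 13 of the 37 members, against 9.69% of all genes. Of the tested members 32 in progenitors and 31 in muscle passed the filter on low counts through either genotype alone. In progenitors Col2a1, Col9a2, Col17a1 and Col26a1 passed only through their WT libraries and Col7a1 only through WT/flox. In muscle Col6a6 passed only through WT, and Col4a4, Col17a1 and Col28a1 only through WT/flox. For each of these the filter favoured the direction in which that genotype is higher. Col2a1, Col9a2, Col17a1 and Col26a1 are all among the 13 members that were lower without overlap in progenitors. They are also among the 21 with an unadjusted p under 0.05 there, and Col6a6 is among the 13 with such a p in muscle. Col24a1 in progenitors and Col19a1 and Col26a1 in muscle passed only through both genotypes together. Genes on the other strand overlap Col12a1, Col13a1, Col15a1, Col4a1, Col4a6, Col5a3 and Col6a6 in GENCODE M21 (GRCm38), the source of the gene coordinates given here, and it is not given in the sources used here whether the counting used strand.

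**Figure D1:**
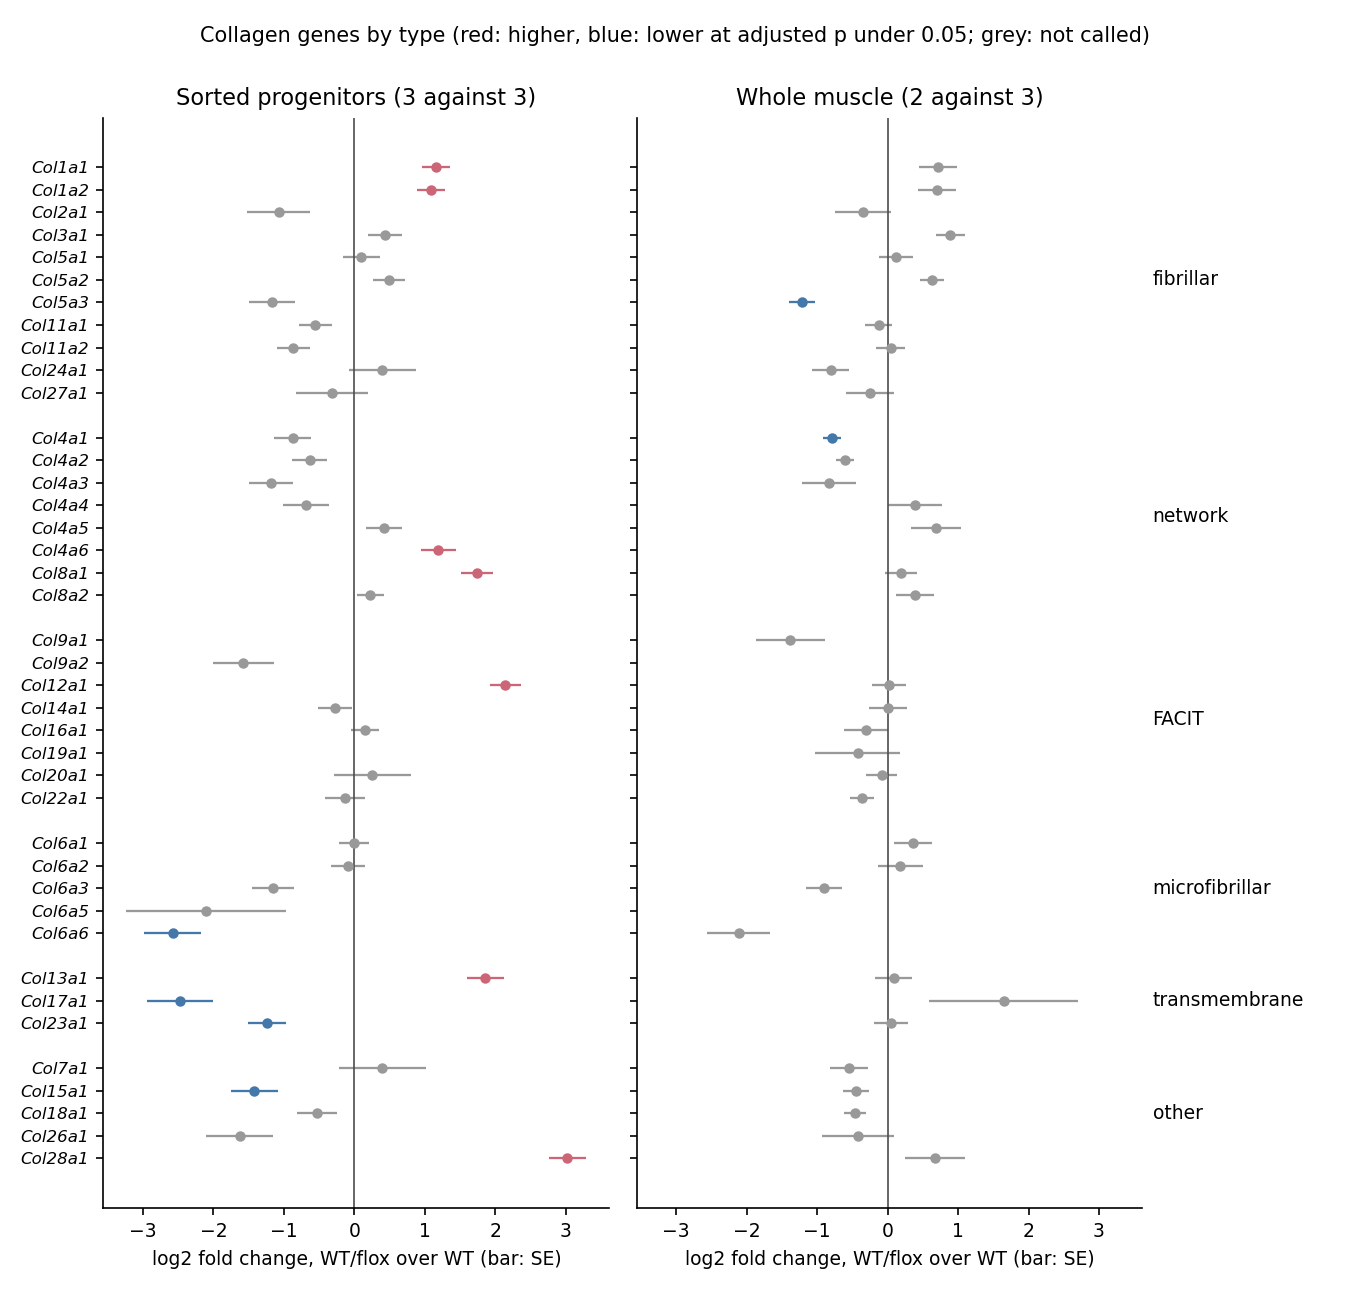
Log2 fold change of WT/flox over WT for each tested collagen gene, with its SE as a bar, in sorted progenitors (left, 3 against 3 libraries) and whole muscle (right, 2 against 3), ordered by collagen type. On the left 7 points are red (higher) and 4 are blue (lower), from 3.03 for Col28a1 to -2.58 for Col6a6, and on the right only Col5a3 and Col4a1 are coloured.

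Promoter windows of 250 bases before the RefSeq start site (GRCm38.p6) were matched for 35 of the 44 members. Those of Col1a1 and Col12a1 are not in the table used. The windows were searched on both strands for TCAAAG, the core letters of the TCF/LEF sites at which beta-catenin acts. It occurred in 13.8% of all 32817 windows and in 9 of the 35 collagen windows. Among the called members it occurred in 1 of the 5 windows of genes that rose, that of Col13a1, and in 2 of the 6 windows of genes that fell in either material, those of Col15a1 and Col5a3. Of the called members whose windows overlap no annotated exon, 4 are shown. They are the 3 with a match, in capitals (CTTTGA is the match on the other strand), and Col28a1, which changed most and has none. The windows of Col8a1, Col4a6 and Col23a1 also overlap no exon, have no match and are not shown. The Col15a1 start used here lies 149 bp from the start in GENCODE. The matches begin 214 (Col13a1), 130 (Col15a1) and 220 (Col5a3) bases upstream of the start. The windows lie at chr10:61979109-61979358 (Col13a1, minus strand), chr6:8192618-8192867 (Col28a1, minus), chr4:47207762-47208011 (Col15a1, plus) and chr9:20815068-20815317 (Col5a3, minus). A match of these letters is a description of the sequence and not a measured binding site.
Col13a1: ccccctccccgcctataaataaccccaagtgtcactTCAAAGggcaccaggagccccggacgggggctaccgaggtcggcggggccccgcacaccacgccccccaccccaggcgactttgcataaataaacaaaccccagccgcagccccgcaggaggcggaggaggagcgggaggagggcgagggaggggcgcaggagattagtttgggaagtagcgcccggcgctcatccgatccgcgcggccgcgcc
Col28a1: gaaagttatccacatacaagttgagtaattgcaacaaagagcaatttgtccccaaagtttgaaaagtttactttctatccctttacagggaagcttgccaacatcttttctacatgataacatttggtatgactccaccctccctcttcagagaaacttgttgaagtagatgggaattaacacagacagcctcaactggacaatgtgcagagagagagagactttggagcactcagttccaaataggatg
Col15a1: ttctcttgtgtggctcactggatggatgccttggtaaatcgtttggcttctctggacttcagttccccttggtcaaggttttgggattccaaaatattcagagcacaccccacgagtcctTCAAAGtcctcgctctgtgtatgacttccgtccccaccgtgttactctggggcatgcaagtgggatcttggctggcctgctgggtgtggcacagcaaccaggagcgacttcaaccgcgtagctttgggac
Col5a3: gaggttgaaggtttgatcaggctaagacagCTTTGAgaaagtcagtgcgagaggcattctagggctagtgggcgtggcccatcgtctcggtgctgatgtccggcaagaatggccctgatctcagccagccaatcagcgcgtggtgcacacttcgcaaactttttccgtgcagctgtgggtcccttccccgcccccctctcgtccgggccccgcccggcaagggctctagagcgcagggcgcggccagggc

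Among the fibrillar collagens both chains of type I rose in WT/flox progenitors, and no other member of the 11 passed. Col1a1 (chromosome 11, 94936224 to 94953042), the alpha 1 chain of the main tensile fibril, was at 8054, 7267 and 6855 CPM in the WT libraries 72B8, 74A2 and 73C3 and at 18535, 15379 and 15766 CPM in the WT/flox libraries 74A1, 72B7 and 74A3. Each WT/flox library was above every WT library, a log2 fold change of 1.16 (SE 0.20, adjusted p = 0.00998, edgeR). Col1a2 (chromosome 6, 4504814 to 4541544), its partner chain, was at 11917, 9278 and 10165 CPM in WT and at 23155, 22139 and 21490 CPM in WT/flox (1.09, SE 0.20, adjusted p = 0.0142). The spread between libraries was small beside the gap for both genes, but with 2 WT/flox libraries in place of 3 the calls were close to the threshold. Col1a1 did not pass without 74A1 (1.08, adjusted p = 0.0564), and Col1a2 did not pass without 74A1, 72B7 or 74A3 (adjusted p = 0.0710, 0.0676 and 0.0607).

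Col3a1, the chain of the thinner and more elastic fibrils, held the highest level of any member per kb of exon in WT progenitors (1858 ± 478 CPM per kb, SD, n = 3) and did not pass. It was at 21835, 19957 and 12933 CPM in WT and at 26916, 21737 and 25272 CPM in WT/flox (log2 fold change 0.43, SE 0.24, adjusted p = 0.590), and the libraries overlapped. The ratio of Col3a1 to Col1a2 counts within a library was 1.75 ± 0.445 in WT and 1.11 ± 0.108 in WT/flox, without overlap, whereas the ratio of Col1a1 to Col1a2 was 0.711 ± 0.0624 and 0.743 ± 0.0535 and overlapped (exact permutation test, two-sided, p = 0.1 and 0.5, where 0.1 is the smallest that 3 against 3 can give).

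The 3 chains of type V, which start and limit the growth of type I fibrils, went different ways in their values. Col5a1 differed by 0.10 (SE 0.26) and Col5a2 by 0.49 (SE 0.23) on the log2 scale, and neither passed (adjusted p = 0.987 and 0.437). Col5a3, the chain with the most restricted expression of the 3, was at 3026, 3505 and 1313 CPM in WT and at 1206, 1114 and 1172 CPM in WT/flox progenitors. All WT/flox libraries were below all WT libraries, 73C3 by little, and the difference of -1.17 (SE 0.32) missed the threshold (adjusted p = 0.0956). It passed without 73C3 (-1.49, adjusted p = 0.00207). Counts of Col5a3 per count of Col5a1 were 0.943 ± 0.204 in WT and 0.409 ± 0.0465 in WT/flox progenitors.

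The remaining fibrillar chains, of types II, XI, XXIV and XXVII, belong mainly to cartilage and bone and were low in progenitors, with WT means from 0.750 CPM for Col24a1 to 39.9 CPM for Col27a1. None passed in the fit of all libraries. Col11a2 (6.90 ± 1.002 CPM in WT, 3.78 ± 0.406 in WT/flox), Col11a1 (9.23 ± 1.69 and 6.29 ± 1.08) and Col2a1 (1.62 ± 0.557 and 0.765 ± 0.215) were lower in every WT/flox library than in any WT library, with adjusted p = 0.0834, 0.343 and 0.335. Col27a1 spanned 10.6 to 61.0 CPM among the WT libraries alone, the lowest being 73C3, and without 73C3 it was called lower.

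Type IV collagen has 6 chain genes that lie as head-to-head pairs, and the values of the pairs did not all lie the same way. Col4a1 and Col4a2 (chromosome 8, 21 bp between their start sites) make the common basement membrane network. Col4a1 was at 5058, 5833 and 3048 CPM in WT and 2234, 2857 and 2503 CPM in WT/flox progenitors (log2 fold change -0.88, SE 0.26, adjusted p = 0.122). Col4a2 differed by -0.63 (SE 0.24, adjusted p = 0.285) and overlapped between genotypes. Both passed without 73C3, the WT library with the lowest values (-1.10 and -0.84, adjusted p = 0.0120 and 0.0395). Endothelial cells also make these chains, and endothelial markers took 0.0591 to 0.0700% of counts in WT progenitors and 0.0454 to 0.0487% in WT/flox. A large part of this share was Tek, at 429, 329 and 374 CPM in WT and 132, 153 and 171 CPM in WT/flox. Kdr, of the same list, rose from 9.49, 2.65 and 7.82 CPM to 169, 88.9 and 117 CPM. Over the 10 endothelial genes the median log2 fold change was -0.30, with 1 called higher and 1 lower. The share alone does not give the number of endothelial cells. The part of such cells in the values of Col4a1, Col4a2 and Col15a1 was not tested.

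Col4a3 and Col4a4 (chromosome 1, 72 bp apart), chains of kidney, lung and eye membranes, were at 78.9 ± 28.6 and 73.5 ± 31.5 CPM in WT and at 34.8 ± 11.7 and 45.6 ± 14.5 CPM in WT/flox. Neither passed (adjusted p = 0.0896 and 0.467), and Col4a3 passed without 73C3 (-1.44, adjusted p = 0.0215). On the X chromosome, where 1309 bp separate the start sites of Col4a5 and Col4a6, the values lay the other way. Col4a6 (141165403 to 141474076), a chain of smooth muscle and epithelial membranes, rose from 22.9, 22.8 and 12.2 CPM to 40.3, 51.9 and 39.5 CPM (1.19, SE 0.25, adjusted p = 0.0293). All its WT/flox libraries were above all WT libraries, yet it did not pass without 74A1, 72B7 or 74A3 (adjusted p = 0.0596, 0.130 and 0.0721). Col4a5 was at 222 ± 67.3 and 299 ± 62.9 CPM and did not pass (0.42, SE 0.26, adjusted p = 0.643).

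Ratios of type IV counts within each progenitor library lay apart between genotypes in their values. Col4a5 per Col4a1 was 0.0480 ± 0.00464 in WT and 0.118 ± 0.0172 in WT/flox, and Col4a6 per Col4a5 was 0.0864 ± 0.00294 and 0.148 ± 0.0112, both without overlap. Col4a1 per Col4a2 was 1.81 ± 0.0670 and 1.54 ± 0.0181, also without overlap. Each of these had a two-sided exact permutation p of 0.1, the smallest that 3 against 3 can give. The test therefore could not reach a threshold of 0.05, and Col4a6 is itself a called member.

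Type VIII is the other network collagen with counts in these cells, a short-chain collagen of vessel walls and of wound and vascular remodelling. Col8a1 (chromosome 16, 57624258 to 57754737) rose from 149, 98.1 and 132 CPM in WT to 387, 347 and 533 CPM in WT/flox, a log2 fold change of 1.74 (SE 0.23, adjusted p = 0.00259, edgeR). The lowest WT/flox library was more than 2 times the highest WT library. The call held in all 6 fits that left out 1 library (1.54 to 1.87). Its partner Col8a2 was at 12.2 ± 2.34 and 14.3 ± 0.727 CPM and did not pass (adjusted p = 0.831). Col10a1, of growth plate cartilage, had 0 counts in all 11 libraries, which allows up to 0.0661 CPM in the WT progenitors and 0.0743 CPM in those of WT/flox (3 counts over the group).

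Of the FACIT collagens, 1 of the 6 tested passed. Col12a1 (chromosome 9, 79598991 to 79718831), which binds type I fibrils in tendon, fascia and loaded connective tissue, was at 102, 92.9 and 87.2 CPM in WT and at 347, 356 and 544 CPM in WT/flox progenitors. The genotypes were far apart and the WT libraries close together, a log2 fold change of 2.14 (SE 0.22, adjusted p = 0.000512, edgeR). The library labelled day 56, 74A3, had the highest value, and without it the change was 1.90 (SE 0.19, adjusted p = 0.00138). Col14a1, the fibril-associated collagen with the highest level per kb (156 ± 10.4 CPM per kb in WT), was at 1150, 1013 and 1123 CPM in WT and 1234, 663 and 812 CPM in WT/flox and did not pass (-0.28, SE 0.24). Col16a1, Col20a1 and Col22a1 had log2 fold changes of 0.16, 0.26 and -0.13 and did not pass. Col9a2 did not pass at -1.57 (SE 0.43, adjusted p = 0.0934), from 4.08 ± 0.830 to 1.36 ± 0.835 CPM.

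Type VI collagen is assembled from the alpha 1, alpha 2 and one of the longer chains, such as alpha 3, 5 or 6. Col6a1 and Col6a2, neighbours on chromosome 10, were close to equal between genotypes in progenitors: Col6a1 was at 4866, 5515 and 3561 CPM in WT and 4598, 4667 and 4661 CPM in WT/flox (log2 fold change -0.00, SE 0.21), and Col6a2 differed by -0.09 (SE 0.24). Col6a3, the usual long chain, was at 5125, 6494 and 2919 CPM in WT and at 2596, 1755 and 2213 CPM in WT/flox. Its WT/flox libraries were all below its WT libraries, and the difference of -1.15 (SE 0.30) missed the threshold (adjusted p = 0.0760). Without 73C3 it passed (-1.41, adjusted p = 0.00892).

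Col6a6 (chromosome 9, 105687809 to 105828160), an alternative to the alpha 3 chain, had the largest fall of any tested member. It was at 488, 464 and 182 CPM in WT and at 82.2, 68.2 and 39.7 CPM in WT/flox, so that even 73C3 lay above every WT/flox library (-2.58, SE 0.40, adjusted p = 0.00797, edgeR). Without 72B7 the adjusted p was 0.0544 at a change of -2.63. Its neighbour Col6a5 was high in 1 WT library only, 67.4 CPM in 74A2 against 8.89 and 2.24 CPM in the other WT libraries and 4.99 to 8.33 CPM in WT/flox. Its fitted change of -2.10 (SE 1.14) did not pass and was 0.15 without 74A2. Per count of Col6a1, Col6a3 was at 1.02 ± 0.182 in WT and 0.472 ± 0.0943 in WT/flox, Col6a6 was at 0.0785 ± 0.0252 and 0.0137 ± 0.00475, and Col6a2 was at 0.976 ± 0.0738 and 0.928 ± 0.0232. The ratios with Col6a3 and Col6a6 did not overlap between genotypes and that with Col6a2 did.

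**Figure D2:**
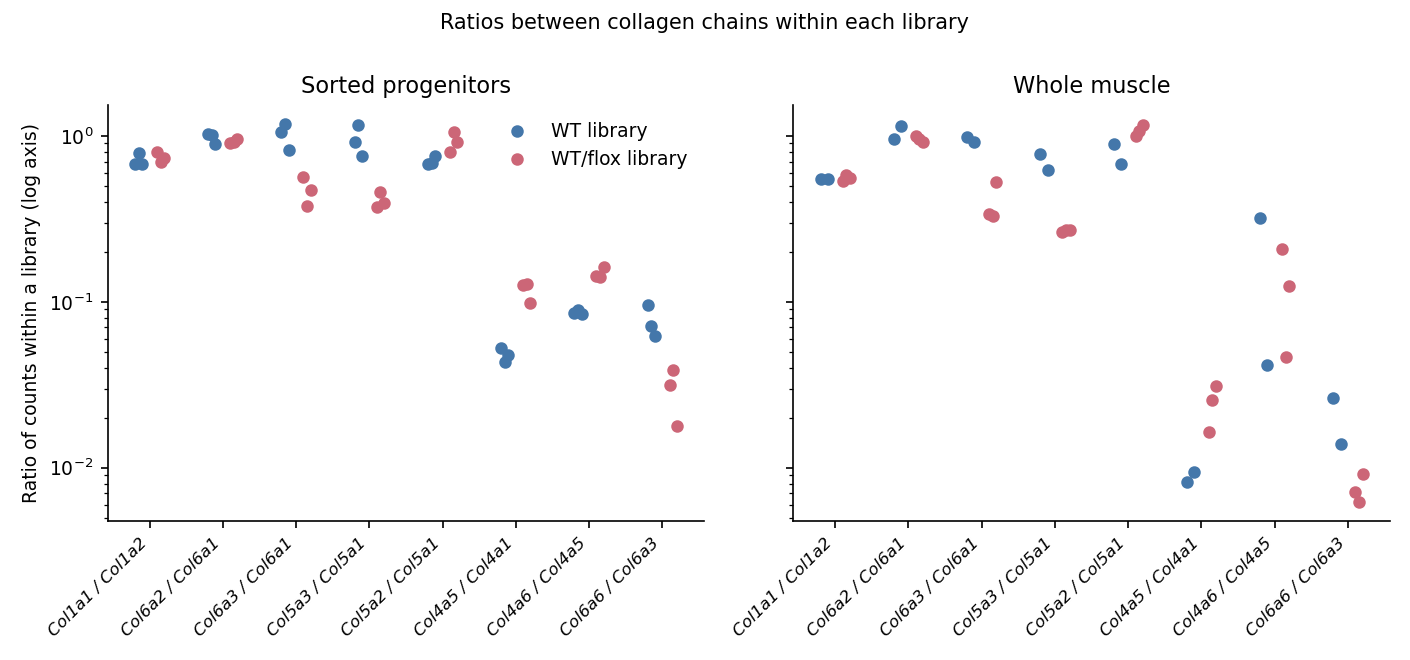
Ratio of the counts of 2 collagen chains within each library (log axis), each point a library, in sorted progenitors (left) and whole muscle (right). WT/flox points lie below WT points without overlap for Col6a3 over Col6a1 and Col5a3 over Col5a1 and above them for Col4a5 over Col4a1 in both materials, while those for Col1a1 over Col1a2 and Col6a2 over Col6a1 overlap.

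The transmembrane collagens were scarce in progenitors, and all 3 tested members passed, in both directions. Col13a1 (chromosome 10, 61838236 to 61979108), an adhesion collagen that is also needed at the neuromuscular junction, rose from 1.81, 2.45 and 1.65 CPM to 7.63, 7.88 and 5.99 CPM (log2 fold change 1.86, SE 0.27, adjusted p = 0.00366). Col17a1 (chromosome 19, 47646344 to 47692094), the hemidesmosome collagen of epithelia, fell from 3.16, 5.49 and 2.18 CPM to 0.587, 0.884 and 0.455 CPM (-2.47, SE 0.47, adjusted p = 0.0169), having passed the count filter only through WT. Col23a1 (chromosome 11, 51289920 to 51583918) fell from 25.2, 26.4 and 14.0 CPM to 9.76, 10.9 and 6.98 CPM (-1.24, SE 0.27, adjusted p = 0.0345). None of the 3 overlapped between genotypes. Col13a1 passed in all 6 fits without 1 library. Col17a1 did not pass without 74A1, 72B7 or 74A3 (adjusted p = 0.0673, 0.0567 and 0.0879), and of the 6 fits without 1 library Col23a1 passed only in that without 73C3, with adjusted p from 0.0816 to 0.142 in the others. It did not pass in limma voom. Col25a1 was not tested, with 3 counts in WT and 7 in WT/flox.

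Among the 5 members outside these types, Col28a1 rose and Col15a1 fell. Col28a1 (chromosome 6, 7997808 to 8192617), a collagen with von Willebrand factor domains best known from peripheral nerve, was at 5.72, 4.37 and 3.59 CPM in WT and at 45.6, 25.6 and 39.7 CPM in WT/flox progenitors. This was an 8.14-fold difference, the largest of any member (log2 fold change 3.03, SE 0.27, adjusted p = 0.000193, edgeR), and it passed in all 6 fits without 1 library (2.85 to 3.23). Col15a1 (chromosome 4, 47208161 to 47313167), a basement membrane proteoglycan collagen of muscle and capillaries, was at 2071, 2925 and 1033 CPM in WT and at 728, 832 and 698 CPM in WT/flox (-1.42, SE 0.33, adjusted p = 0.0471). Its libraries did not overlap, but of the 6 fits without 1 library it passed only in that without 73C3 (-1.73, adjusted p = 0.00267), with adjusted p from 0.0912 to 0.191 in the others, and it did not pass in limma voom. Its relative Col18a1, the source of endostatin, differed by -0.53 (SE 0.28, adjusted p = 0.545) and was called lower only without 73C3. Col26a1 was at 1.48 ± 0.311 and 0.468 ± 0.220 CPM (adjusted p = 0.120) and Col7a1, the anchoring fibril collagen, at 1.63 ± 1.32 and 2.11 ± 0.434 CPM (adjusted p = 0.957).

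**Figure D3:**
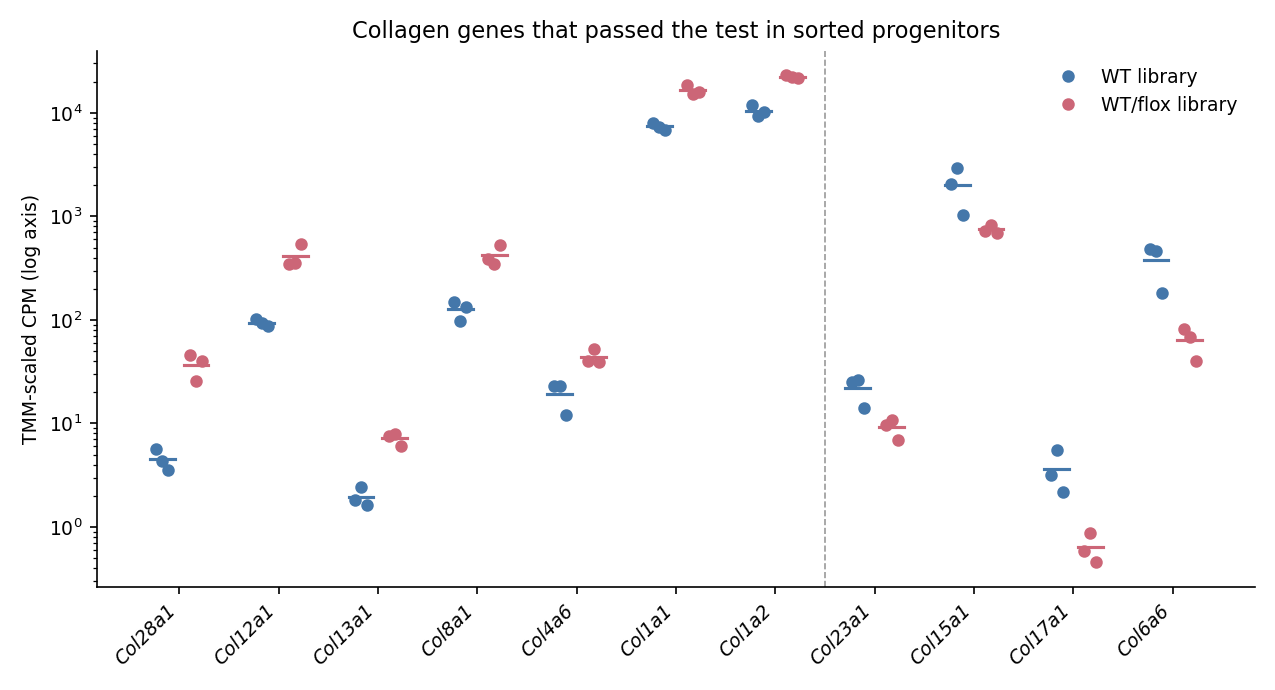
TMM-scaled CPM on a log axis of the 11 collagen genes that passed the edgeR test in sorted progenitors, each point a library and each line the mean of its group, with genes that were higher in WT/flox left of the dashed line. For every gene the 3 WT/flox points lie on one side of the 3 WT points, and the lowest of the 3 WT points is 73C3 for 9 of the 11 genes.

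Untested members in progenitors had few or no counts. Besides Col10a1 and Col25a1 these were Col6a4 (15 counts over WT and 6 over WT/flox), Col9a3 (12 and 20), and Col9a1 and Col19a1 (0 in each, with the same upper limits as Col10a1).

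Levels of different collagens can be set side by side only per length. Per kb of merged exons the order in WT was Col3a1, Col1a1 (1126 ± 92.8 CPM per kb), Col6a1 (1061 ± 227), Col1a2 (841 ± 108), Col4a1 (622 ± 193) and Col6a2 (550 ± 151). The levels of Col1a1 and Col6a1 did not differ beyond their spread, nor did those of Col4a1 and Col6a2. Per kb of the principal transcript Col3a1, Col1a2 and Col1a1 ranked 1, 2 and 3 in WT and likewise in WT/flox, since the annotated exons of Col1a2 sum to 12426 bp against 5348 bp in its principal transcript. Per kb of merged exons Col1a1 was at 2523 ± 262 CPM and Col3a1 at 2510 ± 270 CPM in WT/flox, a difference within their spread, while per kb of the principal transcript they were at 2793 and 4429 CPM and Col1a2 at 4163 CPM. Col15a1 was the highest of the members outside the types (316 ± 149 CPM per kb in WT), and Col23a1 and Col14a1 led the transmembrane and FACIT groups at 3.81 ± 1.19 and 156 ± 10.4 CPM per kb.

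The share of all counts taken by the 44 genes was 7.93, 8.004 and 5.26% in the WT and 9.27, 8.21 and 8.70% in the WT/flox progenitor libraries. Fibrillar members took 5.11, 4.66 and 3.47% in WT and 7.43, 6.38 and 6.83% in WT/flox, without overlap. Network members took 0.855, 0.985 and 0.526% in WT and 0.436, 0.546 and 0.498% in WT/flox, and microfibrillar members 1.57, 1.87 and 0.995% and 1.12, 1.05 and 1.12%. In the last 2 types the WT/flox libraries lay below 72B8 and 74A2, and only 73C3 reached down to their level.

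**Figure D4:**
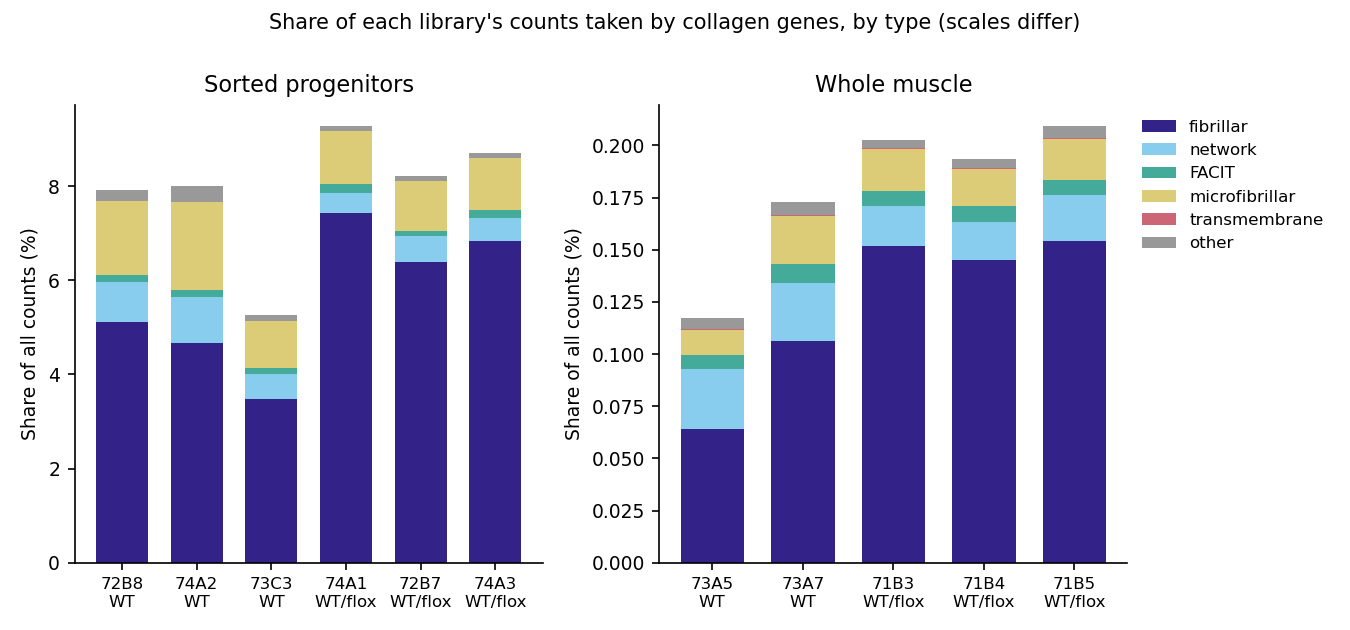
Share of each library's counts taken by collagen genes, stacked by type, in sorted progenitors (left) and whole muscle (right), with scales that differ. The fibrillar part is larger in each WT/flox bar than in any WT bar in both materials, and the WT progenitor library 73C3 has the lowest total of its material at 5.26%.

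In whole muscle collagen transcripts were far less abundant, at 0.117 and 0.173% of counts in WT and 0.203, 0.193 and 0.209% in WT/flox. A bulk lysate cannot tell fewer cells of a type from less RNA per cell. In WT the mean CPM of Col6a6 was 360-fold, of Col4a5 156-fold and of Col14a1 152-fold higher in sorted progenitors than in lysate, while Col7a1, Col22a1 and Col24a1 were higher in lysate (ratios of 0.234, 0.240 and 0.270). Col22a1, a collagen of the junction between muscle and tendon, was at 29.7 and 34.6 CPM in WT and 26.1, 28.3 and 20.9 CPM in WT/flox muscle and did not pass (-0.36, adjusted p = 0.567). The 2 materials were scaled separately and at different days, so these ratios describe the tables and were not tested.

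Col5a3 and Col4a1 were lower in WT/flox muscle. Col5a3 (chromosome 9, 20770050 to 20815067) was at 20.7 and 30.9 CPM in WT and at 11.5, 11.2 and 10.6 CPM in WT/flox (log2 fold change -1.21, SE 0.19, adjusted p = 0.0382, edgeR). Col4a1 (chromosome 8, 11198423 to 11312826) was at 162 and 164 CPM in WT and at 93.2, 89.9 and 98.5 CPM in WT/flox (-0.79, SE 0.13, adjusted p = 0.0440). In both the WT/flox libraries were close to each other and below both WT libraries. Neither passed without 71B3, 71B4 or 71B5, with adjusted p from 0.0685 to 0.247 for Col5a3 and from 0.153 to 0.349 for Col4a1, and without 71B5 edgeR called 0 of all genes, with 1023 at an unadjusted p under 0.05. Neither passed in limma voom. Col5a3 also did not pass with offsets adjusted for transcript length, and Col4a1 did not pass with the authors' replicate numbers as a block. Their partners Col5a1 (0.12, SE 0.24) and Col4a2 (-0.61, SE 0.13, adjusted p = 0.111) did not pass.

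The type I and III chains had higher values in WT/flox muscle without a call. Col1a1 was at 136 and 260 CPM in WT and 353, 340 and 279 CPM in WT/flox (0.71, SE 0.27, adjusted p = 0.427), and Col3a1 at 184 and 287 CPM and 425, 419 and 464 CPM (0.89, SE 0.21, adjusted p = 0.141). For Col1a1, Col1a2, Col3a1 and Col5a2 every WT/flox library was above both WT libraries, 73A5 being the lower of the 2. Without 73A7 the change of Col1a1 was 1.25, with 73A5 as the only WT lysate. The collagens of 73A5 had a median of -0.64 (log2) against 73A7. Over all genes tested 12.4% had every WT/flox library above and 12.9% below both WT libraries, 25.3% together, and among the 37 members these were 4 and 11. The 11 include Col6a6, which was tested only through its WT libraries.

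The marker list of mesenchymal progenitors took 0.0525 and 0.0731% of counts at its lowest and highest in WT muscle and 0.0844 to 0.0989% in WT/flox, with 0 of its 10 genes called by edgeR (3 at an unadjusted p under 0.05, 2 called by DESeq2 and 0 by limma voom) and none at 0. Of the 6 tested muscle stem cell markers Myod1 rose (1.09, SE 0.14) and was lost without 71B3, 71B4 or 71B5 (highest adjusted p 0.107). Myofibre markers took 16.5 to 18.2% in WT, against 12.98 to 16.6% in WT/flox, and endothelial markers 0.0440 to 0.0491% and 0.0379 to 0.0443%, with 0 of 10 called in either list by edgeR or limma voom (2 and 4 at an unadjusted p under 0.05, 1 and 0 called by DESeq2). All the myofibre and endothelial genes with such a p were lower in WT/flox. The median log2 fold changes of these 2 lists were -0.365 and -0.368. Over all genes tested in muscle edgeR called 0.727%, and 9.69% had an unadjusted p under 0.05. The part of these cell types in the collagen values of muscle was not tested.

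The members that did not pass in muscle included most of those called in progenitors. Col12a1 was at 15.4 and 27.8 CPM in WT and 22.7, 22.7 and 20.1 CPM in WT/flox (0.02, SE 0.24), Col8a1 differed by 0.19 (SE 0.23), Col13a1 by 0.09 (SE 0.26) and Col28a1, tested only through its WT/flox libraries, by 0.67 (SE 0.43). Col6a6 was at 1.08 and 1.03 CPM in WT and 0.211, 0.160 and 0.335 CPM in WT/flox (-2.11, SE 0.44, adjusted p = 0.111), tested only through its WT libraries, and Col6a3 at 40.8 and 73.4 CPM and 29.4, 25.9 and 36.5 CPM (-0.90, SE 0.26, adjusted p = 0.259). Without 73A5 the change of Col6a3 was -1.26. Col15a1 differed by -0.44 (SE 0.18), Col23a1 by 0.05 (SE 0.24) and Col17a1, also tested only through WT/flox, by 1.65 (SE 1.05). Not tested in muscle were Col4a6 (8 counts over WT and 16 over WT/flox), Col6a4 (1 and 3), Col6a5 (8 and 18), Col9a2 (15 and 14), Col9a3 (7 and 7), Col25a1 (8 and 20) and Col10a1 (0 and 0).

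In muscle the ratios of Col5a3 to Col5a1 and of Col6a3 to Col6a1 were lower in WT/flox, as in progenitors. Col5a3 per Col5a1 was 0.778 and 0.622 in the WT libraries and 0.263, 0.272 and 0.270 in WT/flox, and Col6a3 per Col6a1 was 0.990 and 0.913 and 0.339, 0.331 and 0.525. Neither overlapped (exact permutation test, two-sided, p = 0.2, the smallest it can give for 2 against 3). Col1a1 per Col1a2 was 0.551 ± 0.00344 and 0.557 ± 0.0230. The ratios of Col3a1 to Col1a2 and of Col4a6 to Col4a5, apart in progenitors, overlapped in muscle and lay the other way in their means. Col3a1 per Col1a2 was 0.743 and 0.611 in WT and 0.641, 0.713 and 0.929 in WT/flox, and Col4a6 per Col4a5, on few counts, 0.180 ± 0.196 and 0.126 ± 0.0802.

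Progenitor and lysate libraries come from different mice, although the lysate contains the progenitors. Of 35 members tested in both materials 24 had the same sign of change (68.6%), against 53.7% of all 11506 genes. An unadjusted edgeR p under 0.05 was reached in both by 8 members, and all 8 had the same sign: Col1a1 and Col1a2 higher, and Col4a1, Col4a2, Col5a3, Col6a3, Col6a6 and Col15a1 lower. For Col6a6 the muscle side had passed the count filter only through WT, where it was higher. Among all genes with such p in both, 247 of 304 had the same sign.

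Whether the change differed between materials was tested in 1 edgeR fit over the 11 libraries, in which all lysates were at day 56 and every progenitor library but 74A3 was at day 14. With no WT progenitor library at day 56, the parts of day and material cannot be told apart. Of 40 members tested only Col12a1 passed, where 0.769% of all genes did: its change was smaller in muscle than in progenitors by -2.07 (log2, SE 0.33, adjusted p = 0.00731). Without the WT lysate library 73A7 this was -1.62 (adjusted p = 0.0565). Col28a1 (-2.31), Col13a1 (-1.73) and Col8a1 (-1.49) had adjusted p = 0.0536, 0.0570 and 0.0688, and for the other members called in progenitors no difference between materials was shown.

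The proteins that make, process and bind collagen were followed through lists of their genes. Over all genes tested edgeR called 3.66% in progenitors and 0.727% in muscle. An unadjusted edgeR p under 0.05 was reached by 12.5% and 9.69%. None of the 20 genes for chain modification and folding passed in either material, 20 being tested in progenitors and 19 in muscle. At an unadjusted edgeR p under 0.05 these were 2 and 0 genes, DESeq2 called 1 and 0, and limma voom 0 and 0. Serpinh1, the collagen chaperone HSP47, averaged 1580 ± 49.0 CPM in WT progenitors, against 1822 ± 217 CPM in WT/flox (log2 fold change 0.21, SE 0.18). The matrix protein Sparc, which binds procollagen, was at 4246 ± 659 and 6957 ± 786 CPM (0.71, SE 0.21, adjusted p = 0.112). None of the 6 tested export genes passed either, Creb3l1, a transcription factor for secretory load, being at 0.51 (SE 0.17, adjusted p = 0.198) in progenitors. In each material 1 export gene had an unadjusted p under 0.05 and neither DESeq2 nor limma voom called any. The median log2 fold changes of the 2 lists in progenitors were 0.19 and 0.15, against 0.00 for all genes.

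Cross-linking had the most calls, 3 higher of 7 in progenitors, where 2.34% of all genes were called higher. The median log2 fold change of the 7 genes was -0.02, so the list did not rise as a whole. Lox, the lysyl oxidase that starts the covalent cross-links of fibrils, rose from 250, 138 and 278 CPM to 681, 941 and 909 CPM (1.93, SE 0.28, adjusted p = 0.00361), and in muscle from 12.0 and 11.7 CPM to 30.6, 32.9 and 37.7 CPM (1.51, SE 0.16, adjusted p = 0.00874). No library of one genotype reached the other in either material, although the muscle call was lost without 71B4 or 71B5 (highest adjusted p 0.0767). Tgm2, a transglutaminase, rose by 1.08 (SE 0.15) and passed in all 6 fits without 1 library. Loxl4 rose by 0.88 (SE 0.19) and passed in 2 of those 6, not without 72B8, 73C3, 74A1 or 74A3 (highest adjusted p 0.136). Loxl1, Loxl2, Loxl3 and Pxdn did not pass.

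Of 9 tested processing genes only Tll2, a tolloid-like protease, passed in progenitors, at 3.09, 6.42 and 2.71 CPM in WT and 0.0734, 0.0737 and 0.152 CPM in WT/flox (-5.24, SE 0.60). All its WT/flox libraries lay under the filter cutoff of 0.720 CPM, so it was tested only through the WT group in which it was high. Bmp1, the main C-propeptidase, differed by 0.07 (SE 0.23), and its enhancer Pcolce was at 1328 ± 40.8 and 2062 ± 167 CPM (0.63, SE 0.18, adjusted p = 0.100). Of 14 fibril-associated proteins 0 passed in progenitors by edgeR and limma voom. An unadjusted edgeR p under 0.05 was reached by 5, against 12.5% of all genes, and DESeq2 called 3 higher and 2 lower. In edgeR Bgn (biglycan) was at 0.90 (SE 0.22, adjusted p = 0.0583) and Fmod (fibromodulin) at -1.57 (SE 0.38, adjusted p = 0.0586). In muscle Ogn (osteoglycin) rose, from 23.9 to 54.8 CPM (1.20, SE 0.18, adjusted p = 0.0356), and was lost without 71B4 or 71B5 (highest adjusted p 0.124).

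Among 10 tested collagen receptors Cspg4, the NG2 proteoglycan that binds type VI collagen, fell in progenitors from 127, 219 and 95.6 CPM to 37.0, 26.7 and 29.6 CPM (-2.24, SE 0.30, adjusted p = 0.00269). The receptor Ddr2 (-0.15) and the integrin chains Itga11 (0.04) and Itgb1 (0.05) did not pass. Of 8 tested degradation genes only the cathepsin Ctsk passed, rising by 0.87 (SE 0.19), and it was lost without 72B7, 72B8, 74A2 or 74A3 (highest adjusted p 0.172). Mmp2 (0.17) and Mmp14 (0.06), the metalloproteases with the most counts, did not pass. In muscle edgeR and limma voom called none of the 8 processing, 10 receptor and 10 degradation genes tested, of which 2, 3 and 3 had an unadjusted edgeR p under 0.05 and DESeq2 called 2, 1 and 0.

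Markers of other cell types are given because several members are also made by them. Over all genes tested in progenitors edgeR called 3.66%. Of the 10 endothelial genes, whose shares in progenitors stand with type IV collagen, Kdr rose by 4.23 (SE 0.44) and Tek fell by 1.31 on the log2 scale, Pecam1 and Cdh5 were under 12 CPM in each library, and none was at 0. The sort removed CD31+ cells. Mural markers took 0.0179 to 0.0284% in WT, against 0.0092 to 0.0161% in WT/flox, of which only Cspg4 passed of 7 tested. Cspg4 was a large part of the WT share, at 127, 219 and 95.6 CPM, against 37.0, 26.7 and 29.6 CPM in WT/flox. Tenocyte markers took 0.183 to 0.229% and 0.223 to 0.262%, with a median log2 fold change of -0.54 over the 8 genes. Mkx and Thbs4 rose by 1.28 and 0.90, while Scx and Tnmd did not pass (-0.71 and -0.43). Fmod, also on this list, was lower without an edgeR call, as given above. Thbs4 was a large part of the share, at 907, 904 and 1098 CPM in WT and 1620, 1810 and 2008 CPM in WT/flox. Mkx and Thbs4 each passed in 1 of the 6 fits without 1 library, that without 73C3. Immune markers took 0.00085 to 0.0016% and 0.00072 to 0.0019%, and myofibre markers 0.0020 to 0.0130% and 0.0019 to 0.0026%, with none called by edgeR or limma voom. All 7 tested myofibre markers were lower in WT/flox at an unadjusted p under 0.05, which 12.5% of all genes reached in either direction. DESeq2 called 3 of the 7. Of the muscle stem cell markers 2 were tested, none was called, and Myf5, Calcr and Cdh15 were at 0. Glial markers took 0.0044 to 0.0054% and 0.0035 to 0.0046%, with 0 of 7 called by any tool and 0 at an unadjusted p under 0.05. Neuromuscular junction markers took 0.0043 to 0.0052% and 0.0131 to 0.0155%, of which Lrp4 alone passed of 4 tested (1.95, SE 0.16). Lrp4 made up most of that share, at 34.0, 37.4 and 29.2 CPM in WT and 125, 121 and 143 CPM in WT/flox. The part of these cell types in the changes of Col12a1, Col28a1, Col13a1 and the other members was not tested.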

How the data were processed

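Gene counts of 11 libraries were analysed as deposited. The deposited tables hold raw read counts per gene symbol, 1 table for sorted progenitors and 1 for muscle lysate. Per the labels' protocols, RNA was isolated with RNeasy kits, prepared with a stranded poly(A) kit and sequenced as paired reads, and bcl2fastq 2.20, Bowtie, STAR and the mm10 build are listed in the submitters' processing notes. Which program counted the reads, and whether by strand, is not given in the sources used here. Sample groups came from the GEO labels. The authors' sample tables call all 11 libraries FAPs, while the labels of 5 say whole muscle lysate, and the labels were followed. The labels name separate mice, so p-values measure spread between animals. Replicates differed beyond sampling noise, with chi-square per degree of freedom from 9.65 to 84.4.

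Genes were filtered with filterByExpr, scaled by TMM and tested with edgeR 4.0.16 (quasi-likelihood F test, robust, R 4.3.3) within each material and, for the interaction, over all libraries, with Benjamini-Hochberg adjustment over all genes and a threshold of 0.05. The SE of a fold change is the one implied by the F statistic. The steps were tested on simulated data. Alternatives were DESeq2 1.42.0, limma voom 3.58.1, other scalings and filters, each library left out, a sex term and, chosen after the data were seen, a replicate block, length-adjusted offsets and lengths of principal transcripts. Genes named were the called members, the other chains of their type, the 2 most abundant members per kb of each type, up to 6 called genes per pathway list and the most abundant markers. Further members and list genes (Creb3l1, Pcolce, Bgn, Fmod and the other uncalled ones) were named after their values were seen. The members and lists were chosen with earlier results of these data known.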

Additional observations from a re-analysis of the deposited data

Results flagged for a closer look

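The difference between WT/flox and WT for Col12a1 differed between materials in the test of the difference itself. It was lower in whole muscle than in sorted progenitors by -2.07 on the log2 scale (SE 0.33, edgeR adjusted p = 0.00731). In progenitors Col12a1 averaged 93.9 ± 7.34 CPM in WT and 415 ± 111 in WT/flox (SD, n = 3 per group) and at 21.6 ± 8.79 (n = 2) and 21.8 ± 1.51 CPM (n = 3) in muscle. The difference was between -2.43 and -1.62 when each library was left out in turn, and adjusted p was 0.0565 without the WT lysate 73A7. The lysates were all taken at day 56, and of the progenitor libraries only 74A3 was, a WT/flox one. With no WT progenitor library at day 56, the parts of material and day cannot be told apart.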

How the results depend on the processing

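Too few counts kept 6 collagens in progenitors and 7 in muscle out of the tests, and Col9a1, Col10a1 and Col19a1 had 0 counts in all 6 progenitor libraries. With the progenitor collagens at 7 higher and 4 lower, the lower count was 9 in DESeq2, 2 in limma voom and 9 with length-adjusted offsets without 73C3, and leaving out each library gave 4 to 7 higher and 1 to 11 lower. The 11 lower came without the WT library 73C3, and the single lower ones without any 1 of the WT/flox libraries. Without 74A3, so with all libraries at day 14, 5 were higher and 1 lower. Col8a1, Col12a1, Col13a1 and Col28a1 passed under each alternative run. In muscle, with 0 higher and 2 lower, DESeq2 called 1 higher, voom 0 lower, length-adjusted offsets 1 lower, and leaving out each library gave 0 to 4 higher and 0 to 3 lower. The most higher calls came without 73A7, a fit that left 73A5 as the only WT lysate. Pathway genes in progenitors (4 higher, 2 lower) became 11 higher and 5 lower in DESeq2, with 2 to 6 higher when each library was left out. In muscle (2 higher, 0 lower) they became 5 higher and 1 lower in DESeq2, with 0 to 10 higher and 0 to 3 lower when each library was left out. The interaction called 1 to 2 collagens when each library was left out. Over all genes 454 calls in progenitors became 755 in DESeq2, and 92 in muscle became 267 in DESeq2, 139 without the count filter and 134 with length-adjusted offsets. The authors' replicate numbers were not in the GEO labels and did not pair the libraries (same-number correlations of 0.356, 0.004 and -0.209 in progenitors, and -0.075 and -0.629 in muscle). With these numbers as a replicate block, the progenitor collagens were 7 higher and 6 lower, the muscle collagens 0 higher and 1 lower, and 491 and 178 genes were called. Signs changed for values near 0 and for some farther from it, such as Col6a5 in progenitors (main -2.10) and Col6a1 in muscle (main 0.36). In progenitors Col5a1 (main 0.10) was -0.14 without 73C3 and -0.036 with length adjustment as well, and Col6a1 was 7.4e-05 with RLE scaling, 7.7e-05 in DESeq2, 0.0199 in voom, 0.0104 with the sex term, 0.0216 with the block and 0.0093 with length adjustment. Left-out libraries gave -0.14 to 0.27 for Col5a1, -0.16 to 0.14 for Col6a1, -0.29 to 0.076 for Col6a2 and -2.64 to 0.15 for Col6a5. In muscle they gave -0.26 to 0.63 for Col5a1, -0.039 to 0.92 for Col6a1, -0.30 to 0.92 for Col6a2, -0.069 to 0.51 for Col8a1, -0.35 to 0.50 for Col12a1 (-0.043 with length adjustment) and -0.092 to 0.14 for Col23a1. The cause of these changes was not tested.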

Other observations

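In WT muscle the order of the leading collagens depended on the length used. Per kb of merged exons Col1a1 (30.2 ± 13.4 CPM, SD, n = 2), Col1a2 (28.9 ± 12.7), Col3a1 (24.0 ± 7.45), Col4a1 (21.8 ± 0.198) and Col4a2 (17.7 ± 0.152) led, and the first 4 did not differ beyond their spread. Per kb of the principal transcript Col1a2 (67.2 CPM), Col3a1 (42.4), Col1a1 (33.4) and Col4a1 (24.6) led, and the first 3 were also the first 3 in WT progenitors, in another order. The spread of both type IV chains between the WT lysates was far smaller than that of the type I chains, and the fibrillar share of counts was 0.0642% in 73A5 and 0.107% in 73A7 where the network share was 0.0287% and 0.0278%. Col9a1, a cartilage FACIT chain with 0 counts in all 6 progenitor libraries, was at 2.09 and 1.03 CPM in WT and 0.896, 0.320 and 0.574 CPM in WT/flox muscle (log2 fold change -1.38, SE 0.49, adjusted p = 0.385, edgeR). Col24a1, a fibrillar chain of bone, was at 2.93 and 2.63 CPM in WT and 1.32, 1.81 and 1.63 CPM in WT/flox muscle, without overlap and without a call (-0.81, SE 0.26, adjusted p = 0.316).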
